A study of Mus musculus with 4 samples.

Results

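Germline and meiosis genes were examined in E14 mouse embryonic stem cells (mESCs) with and without Npac. The set held 39 of the 56748 genes listed in the count table. It was picked by name for known function in germ cells and not by any measured value, though with earlier results of these data known. Its genes encode regulators of germ cell identity and meiotic entry, proteins of the synaptonemal complex and meiotic chromosome axis, meiotic cohesins, recombination factors and proteins of the piRNA pathway. RNA-seq was available for 2 libraries of wild-type (WT) E14 cells and 2 libraries of Npac KO cells. Npac KO lines were made in E14 cells by electroporating plasmids for a guide RNA and Cas9, selecting with puromycin and picking colonies. KO1 and KO2 each stand for 1 knockout clone with 1 library, and the WT cells are not described as having gone through that selection and cloning. All cells were grown without feeders on gelatin in medium with serum and leukemia inhibitory factor. Nothing says whether WT1 and WT2 came from separate cultures, so p-values measure only the spread between these 4 libraries. Npac, the protein of the gene listed as Glyr1, is a chromatin reader found over transcribed gene bodies and a cofactor of the histone demethylase Kdm1b.

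Germline genes encode the machinery that pairs, recombines and separates homologous chromosomes in meiosis, and the piRNA machinery that silences transposons in germ cells. In somatic cells many of them are shut off by DNA methylation of CpG-rich promoters, and in mESCs many are also held down by the variant Polycomb complex PRC1.6. PRC1.6 is known to reach these promoters through Mga and Max, which bind the E-box CACGTG, and through E2f6 and Tfdp1, which bind E2F-type sites such as TCCCGC. DNA methylation and protein binding were not measured in these libraries.

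Promoter windows of 300 bases, from 250 bases before to 50 bases after the transcription start (RefSeq, GRCm38.p6), were matched by symbol for 34 of the 39 genes. No window was matched for Spo11, Piwil2, Tdrd6, Rnf17 and Tex11. CACGTG was found in 14 of the 34 matched genes (41.2%), in 11.4% of 12411 genes that passed the filter on low counts and had a window, and in 8.09% of all 27025 genes with a window. TCCCGC, read on both strands, was found in 14 of the 34 genes (41.2%), against 38.2% and 22.1%. Both hexamers were found in 8 of the 34 genes (23.5%), against 4.97% and 2.65%. The median CpG observed/expected ratio was 0.706 in the set, 0.722 in the filtered genes and 0.389 in all genes with a window. A match is a description of the letters in the window and not a mapped binding site. CACGTG reads the same on both strands, and a match to one hexamer can share at most 1 base with a match to the other.

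The stretches printed here are from 6 genes whose transcripts differed between genotypes, 3 lower in Npac KO cells (Stag3, Taf7l, Sycp3) and 3 higher (Hormad1, Rec8, Meioc). They are shown because each hexamer was found both in genes that rose and in genes that fell. CACGTG was in 2 of the 5 genes of the set that rose and in 4 of the 7 that fell. TCCCGC was in 4 of the 5 and in 2 of the 7. Neither hexamer was found in 1 of the 5 and in 3 of the 7. Capitals mark CACGTG and TCCCGC, the latter written GCGGGA where it lies on the other strand, and each sequence runs 5′ to 3′ on the strand of its gene.
Stag3, chr5:138280299-138280384, plus strand: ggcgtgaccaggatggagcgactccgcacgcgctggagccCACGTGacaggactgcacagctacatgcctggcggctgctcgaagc
Taf7l, chrX:134476494-134476579, minus strand: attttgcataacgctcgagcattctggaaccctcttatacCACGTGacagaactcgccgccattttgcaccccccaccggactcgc
Hormad1, chr3:95559542-95559676, plus strand: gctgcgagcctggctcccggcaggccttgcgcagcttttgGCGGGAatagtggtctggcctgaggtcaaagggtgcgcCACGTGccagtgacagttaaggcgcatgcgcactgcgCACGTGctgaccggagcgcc
Sycp3, chr10:88459400-88459586, plus strand: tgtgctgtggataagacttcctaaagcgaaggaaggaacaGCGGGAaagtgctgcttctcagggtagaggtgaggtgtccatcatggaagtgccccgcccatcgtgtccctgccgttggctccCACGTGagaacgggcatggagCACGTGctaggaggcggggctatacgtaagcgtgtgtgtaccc
Rec8, chr14:55618088-55618165, plus strand: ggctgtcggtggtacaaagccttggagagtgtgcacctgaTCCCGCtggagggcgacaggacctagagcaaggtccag
Meioc, chr11:102665335-102665402, plus strand: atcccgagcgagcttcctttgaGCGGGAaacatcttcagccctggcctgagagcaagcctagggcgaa
Hormad1 (higher) and Sycp3 (lower) each held 2 copies of CACGTG and 1 of TCCCGC in the stretches printed. Stag3 held 1 CACGTG at base 170 before the start, and its single TCCCGC crosses the start, outside the printed stretch. Taf7l held CACGTG alone, and Rec8 and Meioc held TCCCGC alone.

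Total counts per library ran from 15850805 to 16965120, and 18157 genes passed the filter on low counts. Glyr1 was at 259 and 178 CPM (TMM-normalised reads of a gene scaled to library size) in WT1 and WT2, and at 47.9 and 51.3 CPM in KO1 and KO2. Its fitted log2 fold change was −2.14 (SE 0.23, adjusted p = 0.00174 by edgeR's quasi-likelihood test), so the targeted gene's transcript fell in both KO libraries but was still counted. Log2 CPM correlated across genes at 0.967 between the WT libraries and at 0.983 between the KO libraries, and genes are not independent replicates. All 12 embryonic stem cell markers examined were measured in every library, and their summed level was 8458 and 6703 CPM in WT and 5879 and 5540 CPM in KO cells. Zfp42 and Tfcp2l1 fell, and the other 10 markers did not pass the test.

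Of the 39 germline and meiosis genes, 37 passed the filter. Spo11, the enzyme that makes meiotic double-strand breaks, had at most 7 reads in a library, and Tdrd6, a scaffold of the chromatoid body, had at most 10. Both were left untested. Among the 37, 5 rose in Npac KO cells, 7 fell and 25 did not pass the test, with thresholds of 0.05 on the adjusted p and of 1.5 on the fold change. The background over all 18157 genes was 11% higher, 10.7% lower and 21.7% in either direction, against 13.5% and 18.9% of the 37. The share that rose was thus near the background. The median log2 fold change was −0.48, with quartiles of −1.10 and 0.54, against a median of 0.0015 over all genes tested, and 16 of the 37 values were above 0 and 21 below. Both KO libraries lay below both WT libraries for 10 of the 37 genes (32.5% of all genes tested) and above them for 10 (33.2% of all genes). The groups overlapped for the other 17, and for 6228 of all 18157 genes tested. An unadjusted p under 0.05 was reached by 17 of the 37, and by 6809 of all 18157 genes tested. In bulk libraries, fewer cells that make a transcript and less of it per cell cannot be told apart.

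**Figure D1:**
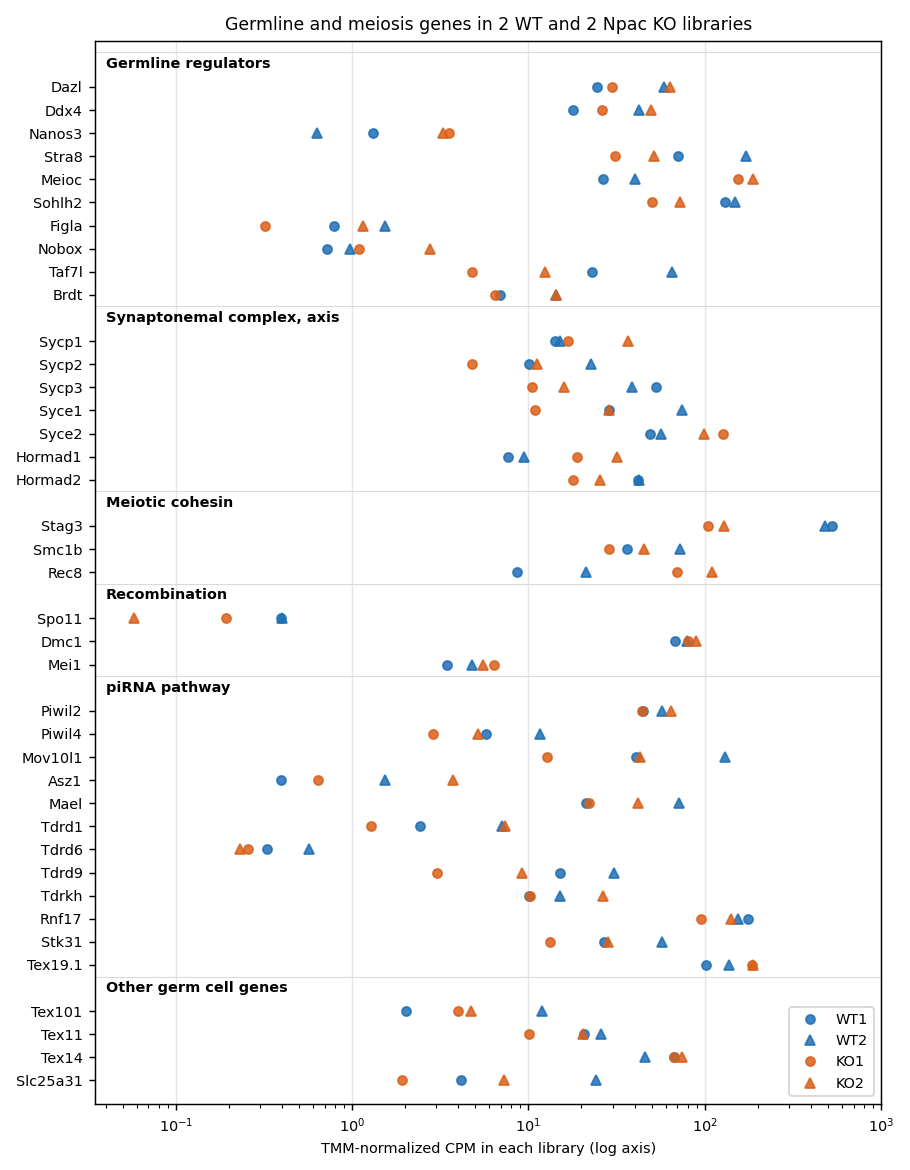
Normalised CPM on a log axis for each of the 39 genes, grouped by role, with WT libraries in blue, Npac KO libraries in orange, circles for the first library of a genotype and triangles for the second. Stag3 sits at 530 and 482 CPM in WT and at 105 and 129 CPM in KO cells, while for genes such as Dazl the triangles of both genotypes lie together to the right of the circles.

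Among the 10 germline regulators, all tested, 2 rose, 3 fell and 5 did not pass. Meioc (ENSMUSG00000051455, chromosome 11), which acts with an RNA helicase to sustain meiotic prophase, was at 26.4 and 40.2 CPM in WT and at 154 and 188 CPM in KO cells. The groups lay far apart, and the mean went from 33.3 ± 9.75 to 171 ± 23.9 CPM (SD, n = 2 each), a fitted 5.14-fold rise (log2 fold change 2.36, SE 0.25, adjusted p = 0.00171). Nanos3 (ENSMUSG00000056155, chromosome 8), an RNA-binding protein that protects primordial germ cells, was much scarcer. It had 20 and 11 reads in WT and 55 and 57 in KO cells, and its log2 fold change was 1.82 (SE 0.53, adjusted p = 0.0452). That call was lost with DESeq2 (adjusted p = 0.0559) and without either KO library (0.224 without KO1 and 0.176 without KO2).

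Stra8 and Sohlh2 fell. Stra8 (ENSMUSG00000029848, chromosome 6) is the retinoic acid-induced factor that starts the meiotic program. Its level was 70.1 and 171 CPM in WT and 30.9 and 51.4 CPM in KO cells. The KO values lay below both WT values, although the WT libraries differed from each other 2.44-fold, and the log2 fold change was −1.55 (SE 0.42, adjusted p = 0.0366). The adjusted p was 0.0600 and 0.0637 on the deposited FPKM values with the 2 pseudocounts tried, and 0.0520 without KO1. Sohlh2 (ENSMUSG00000027794, chromosome 3), a helix-loop-helix factor of early spermatogonia and oocytes, was at 131 and 148 CPM in WT and at 50.3 and 72.3 CPM in KO cells. Its libraries agreed more closely within a genotype, and its log2 fold change was −1.18 (SE 0.22, adjusted p = 0.0110), which did not pass without KO1 (−0.96, adjusted p = 0.0940).

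Taf7l (ENSMUSG00000009596, chromosome X), a germ cell variant of a TFIID subunit, had the lowest fitted log2 fold change of the 37 genes. It was at 22.9 and 65.5 CPM in WT and at 4.76 and 12.4 CPM in KO cells. The KO libraries were both below the WT libraries, and within each genotype the second library was over the first, 2.86-fold in WT and 2.60-fold in KO cells. The fitted change was a fall by 2.36 on the log2 scale (SE 0.57, adjusted p = 0.0252).

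The remaining 5 regulators did not pass the test. Dazl, an RNA-binding protein that licenses germ cells for sexual differentiation, was at 24.4 and 58.7 CPM in WT and at 30.0 and 63.2 CPM in KO cells. Ddx4, the germ granule helicase Vasa, was at 18.0 and 42.5 CPM in WT and at 26.1 and 49.4 CPM in KO cells. For both genes the groups overlapped and the spread inside each genotype was larger than the difference between them, with log2 fold changes of 0.17 (SE 0.45, adjusted p = 0.823) and 0.32 (SE 0.43, adjusted p = 0.628). Brdt, a testis bromodomain protein, was at 6.94 and 14.3 CPM in WT and at 6.498 and 14.3 CPM in KO cells, and its log2 fold change was −0.029 (SE 0.48). The oocyte factors Figla and Nobox were near the lower limit of the data, with 5 to 27 reads for Figla and 11 to 48 for Nobox. Neither passed, with log2 fold changes of −0.65 (SE 0.71, adjusted p = 0.549) and 1.19 (SE 0.62, adjusted p = 0.202).

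Of the 7 tested genes of the synaptonemal complex and chromosome axis, 2 rose, 2 fell and 3 did not pass. Sycp3 (ENSMUSG00000020059, chromosome 10), the axial element protein, was at 52.6 and 38.9 CPM in WT and at 10.5 and 16.005 CPM in KO cells. The groups were well separated, and the mean went from 45.7 ± 9.70 to 13.2 ± 3.90 CPM (SD, n = 2 each; log2 fold change −1.78, SE 0.28, adjusted p = 0.00642). Hormad2 (ENSMUSG00000020419, chromosome 11), a sensor of unsynapsed axes, was at 41.6 and 42.2 CPM in WT and at 18.0 and 25.6 CPM in KO cells. Its log2 fold change was −0.94 (SE 0.24, adjusted p = 0.0279), and the call was lost without KO1 (adjusted p = 0.295) or KO2 (0.0671).

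Hormad1 and Syce2 were higher in KO cells. Hormad1 (ENSMUSG00000028109, chromosome 3), the close relative of Hormad2 that also recruits the break-forming machinery, was at 7.66 and 9.39 CPM in WT and at 18.9 and 31.8 CPM in KO cells. The paralogues thus moved in opposite directions, with a log2 fold change of 1.57 for Hormad1 (SE 0.32, adjusted p = 0.0146), which did not pass without KO2 (1.16, adjusted p = 0.141). Syce2 (ENSMUSG00000003824, chromosome 8), a central element protein, was at 49.2 and 56.8 CPM in WT and at 126 and 99.3 CPM in KO cells (log2 fold change 1.09, SE 0.20, adjusted p = 0.0107), and did not pass without KO1 (0.90, adjusted p = 0.105). Syce2 shares 1829 bases with Gcdh on the opposite strand, which had 616 and 1075 reads in WT and 2353 and 3329 in KO cells. Since the strand setting of the counting is not stated, reads in the stretch shared by Syce2 and Gcdh cannot be told apart. For Sycp3 the same limit applies over its whole length, as it shares 13668 bases with Chpt1 on the opposite strand. Chpt1 had 409 and 500 reads in WT and 270 and 349 in KO cells.

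The other components did not pass in the main edgeR fit. Sycp1, the transverse filament protein, was at 14.1 and 15.1 CPM in WT and at 16.9 and 36.7 CPM in KO cells, so that 1 KO library stood close to the WT level and the other above it (log2 fold change 0.88, SE 0.36, adjusted p = 0.120). Sycp2, the partner of Sycp3 in the axis, was at 10.02 and 22.7 CPM in WT and at 4.76 and 11.2 CPM in KO cells (log2 fold change −1.04, SE 0.51, adjusted p = 0.178). Syce1, another central element protein, was at 28.5 and 73.9 CPM in WT and at 10.9 and 28.8 CPM in KO cells (log2 fold change −1.37, SE 0.53, adjusted p = 0.103). For Sycp2 and Syce1 the higher KO library lay above the lower WT library, although Syce1 passed with DESeq2 (adjusted p = 0.0148).

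Of the 3 meiotic cohesin genes, 1 rose, 1 fell and 1 did not pass. Cohesin rings in meiosis carry Smc1b in place of its somatic counterpart, the kleisin Rec8 and the subunit Stag3. Stag3 (ENSMUSG00000036928, chromosome 5) was the most abundant transcript of the set per length by the WT mean. That mean was 87.6 FPKM in WT, against 20.1 FPKM in KO cells. In WT2 alone Stra8 was higher, at 94.1 FPKM against 83.3 FPKM for Stag3. In counts Stag3 was at 530 and 482 CPM in WT and at 105 and 129 CPM in KO cells. The genotypes were widely separated, and the mean fell from 506 ± 34.3 to 117 ± 17.3 CPM (SD, n = 2 each; log2 fold change −2.12, SE 0.20, adjusted p = 0.00110). Rec8 (ENSMUSG00000002324, chromosome 14) was at 8.58 and 21.2 CPM in WT and at 69.4 and 111 CPM in KO cells. It was the gene of the set with the highest fitted rise, 6.03-fold (log2 fold change 2.59, SE 0.42, adjusted p = 0.00724), with a mean of 5.03 FPKM in WT and 30.3 FPKM in KO cells. Smc1b was at 36.4 and 72.6 CPM in WT and at 28.6 and 45.2 CPM in KO cells, with overlapping groups (log2 fold change −0.56, SE 0.35, adjusted p = 0.283).

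**Figure D2:**
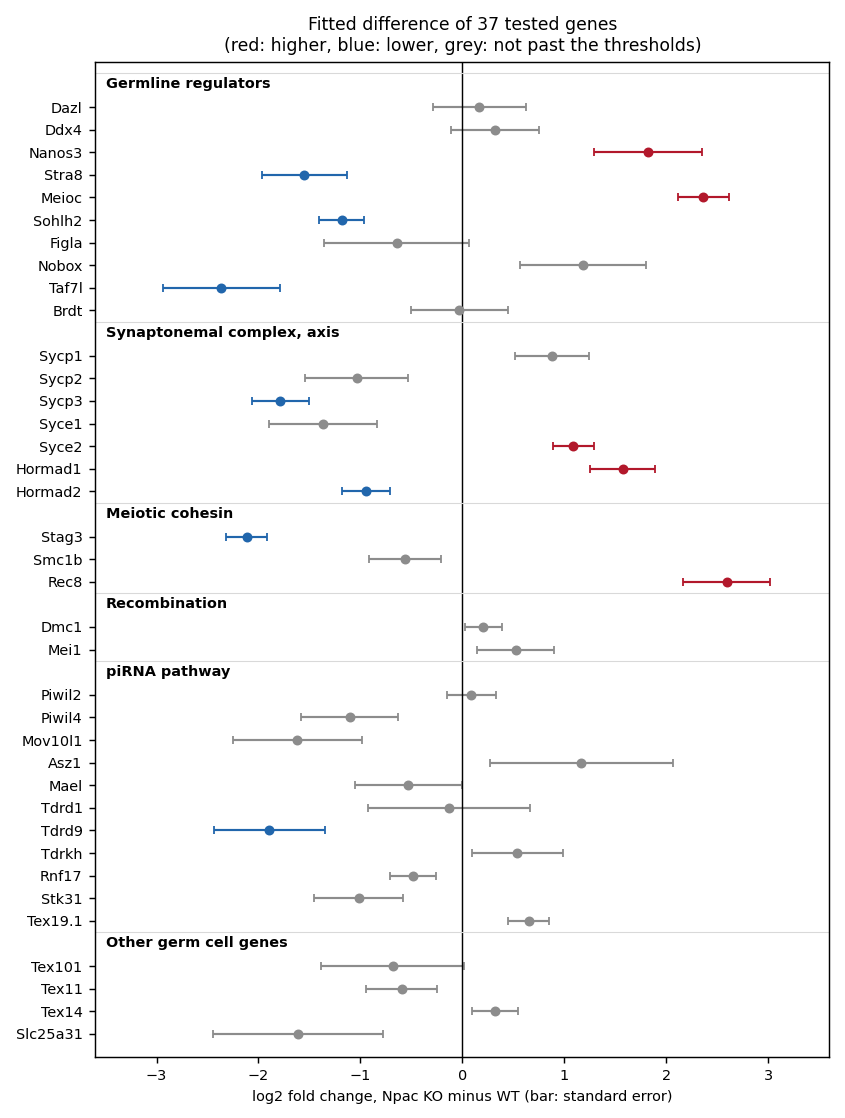
Fitted log2 fold change of Npac KO over WT for the 37 tested genes, grouped by role, with the standard error as a bar and the calls in red (higher) or blue (lower). Rec8 at 2.59 and Stag3 at −2.12 lie on opposite sides of 0 within the meiotic cohesins, and 25 genes in grey did not pass the thresholds.

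Neither of the tested recombination genes passed. Dmc1, the meiotic strand exchange recombinase, was at 67.7 and 79.6 CPM in WT and at 80.7 and 89.2 CPM in KO cells. Its libraries agreed well, and the fitted log2 fold change of 0.21 (SE 0.18, adjusted p = 0.455) was small. Mei1, needed for meiotic break formation, was at 3.47 and 4.81 CPM in WT and at 6.37 and 5.55 CPM in KO cells (log2 fold change 0.52, SE 0.38, adjusted p = 0.354), and both of its KO libraries lay above both WT libraries.

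Of the 11 tested genes of the piRNA and germ granule group, 1 fell and 10 did not pass. Tdrd9 (ENSMUSG00000054003, chromosome 12), a helicase with a Tudor domain, was at 15.1 and 30.4 CPM in WT and at 3.02 and 9.19 CPM in KO cells (log2 fold change −1.89, SE 0.54, adjusted p = 0.0433). Both KO libraries lay below both WT libraries. The adjusted p was 0.0509 with upper-quartile normalization, 0.0604 and 0.0577 on FPKM and 0.0949 without KO1, so this call was not kept in those settings.

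The Argonaute proteins of the pathway did not pass in the main edgeR fit. Piwil2 was at 44.9 and 57.2 CPM in WT and at 44.3 and 64.3 CPM in KO cells, a fitted log2 fold change of 0.089 (SE 0.24, adjusted p = 0.821). Piwil4, the nuclear member, was at 5.76 and 11.7 CPM in WT and at 2.90 and 5.20 CPM in KO cells, without overlap (log2 fold change −1.10, SE 0.48, adjusted p = 0.133). Mov10l1, the helicase that feeds precursors into piRNA processing, was at 40.7 and 130 CPM in WT and at 12.7 and 42.8 CPM in KO cells. Its 3.19-fold spread within WT and 3.36-fold spread within KO cells was about as large as its fitted fall by 1.62 on the log2 scale (SE 0.63, adjusted p = 0.105). By edgeR it passed with no filter on low counts (adjusted p = 1.32e-09) and with the replicate number as a block (1.39e-05).

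The rest of that group also stayed below the thresholds in the main edgeR fit. Rnf17, a Tudor protein of germ granules, was at 175 and 154 CPM in WT and at 95.0 and 141 CPM in KO cells (log2 fold change −0.48, SE 0.23, adjusted p = 0.163). Tex19.1, which restrains retrotransposons in germ cells and is also made in mESCs, was at 101 and 137 CPM in WT and at 185 and 188 CPM in KO cells. Its KO libraries lay above both WT libraries, and its adjusted p of 0.0548 (log2 fold change 0.65, SE 0.20) was just over the threshold, while DESeq2 gave 0.0384. Stk31, a Tudor-domain kinase, was at 27.0 and 57.1 CPM in WT and at 13.3 and 28.2 CPM in KO cells (log2 fold change −1.02, SE 0.44, adjusted p = 0.130). By edgeR it passed with no filter on low counts (adjusted p = 0.00152) and with the replicate number as a block (0.00157). Mael, a germ granule protein, was at 21.3 and 71.3 CPM in WT and at 22.1 and 42.1 CPM in KO cells (log2 fold change −0.53, SE 0.52, adjusted p = 0.5004). Tdrkh and Asz1, scaffold proteins at mitochondria, ranged from 10.1 to 26.5 CPM and from 0.393 to 3.76 CPM. Their fitted log2 fold changes were 0.54 (SE 0.45, adjusted p = 0.418) and 1.17 (SE 0.90, adjusted p = 0.383). Tdrd1, a Tudor scaffold for Piwi proteins, was at 2.42 and 7.10 CPM in WT and at 1.29 and 7.40 CPM in KO cells, and its log2 fold change of −0.13 had an SE of 0.79 (adjusted p = 0.924).

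The 4 other germ cell genes did not pass in the main edgeR fit with all 4 libraries or with DESeq2. None had an unadjusted p under 0.05 in that edgeR fit. Tex14, a protein of germ cell bridges, was at 67.3 and 45.8 CPM in WT and at 66.5 and 74.7 CPM in KO cells (log2 fold change 0.32, SE 0.23, adjusted p = 0.344). Tex11, an X-linked protein of crossover formation, was at 20.7 and 25.6 CPM in WT and at 10.1 and 20.5 CPM in KO cells (log2 fold change −0.60, SE 0.35, adjusted p = 0.253). Tex101, a germ cell surface protein, and Slc25a31, a testis ADP/ATP carrier, were each high in a single library. Tex101 was at 2.03 and 12.0 CPM in WT and at 3.99 and 4.74 CPM in KO cells, and Slc25a31 at 4.13 and 24.2 CPM in WT and at 1.93 and 7.28 CPM in KO cells. With WT2 so far above WT1, the log2 fold changes of −0.69 (SE 0.70, adjusted p = 0.519) and −1.61 (SE 0.84, adjusted p = 0.200) had wide errors. Slc25a31 did pass by edgeR with no filter on low counts (−1.598, adjusted p = 0.000305) and with the replicate number as a block (−1.46, adjusted p = 0.00227). Its log2 fold change was −2.41 without WT1 and −2.85 without KO2. Without WT1, Tex101 was at −1.48, Tex11 at −0.77 and Tex14 at 0.60. Without WT2, Slc25a31 was at 0.16 and Tex101 at 1.10.

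The spread within a genotype had a pattern of its own. The second library was over the first in both genotypes for 30 of the 37 genes (81.1%), against 30.4% of all genes tested. WT2 was more than 1.5-fold over WT1 for 20 of the 37 genes (17.7% of all genes tested), and KO2 was more than 1.5-fold over KO1 for 24 (10.5% of all genes). Both held for 18 of the 37 genes (48.6%, against 5.11% of all genes), and for none was the second library more than 1.5-fold under the first in both genotypes (2.21% of all genes). The median log2 difference was 0.88 between WT2 and WT1 and 0.82 between KO2 and KO1, against 0.011 and 0.0041 over all genes tested. The summed level of all 39 genes was 1691 and 2242 CPM in WT1 and WT2 and 1277 and 1753 CPM in KO1 and KO2. These are values with 1 library on each side and carry no test, and the labels do not say whether libraries of the same number were grown, extracted or sequenced together. Genes of 1 library are not independent of each other.

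The piRNA genes and the regulators carried this spread most often, with both second libraries higher for 10 of 11 and 9 of 10 genes. Slc25a31 differed 5.86-fold in WT and 3.77-fold in KO cells, and Asz1 3.93-fold and 5.84-fold on 6 to 65 reads. Dazl differed 2.41-fold and 2.11-fold and Taf7l 2.86-fold and 2.60-fold. Among genes that differed between genotypes, Rec8 had ratios of 2.47 and 1.595 within WT and KO cells, Meioc 1.52 and 1.22, Sycp3 0.739 and 1.53 and Stag3 0.909 and 1.23. Leaving out WT2 turned the median of the set to 0.27, and leaving out KO2 moved it to −0.80. Without WT1 the median was −0.73, and without KO1 it was −0.030. Meioc, Rec8, Stag3, Sycp3 and Taf7l were called in each of these 4 fits.

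**Figure D3:**
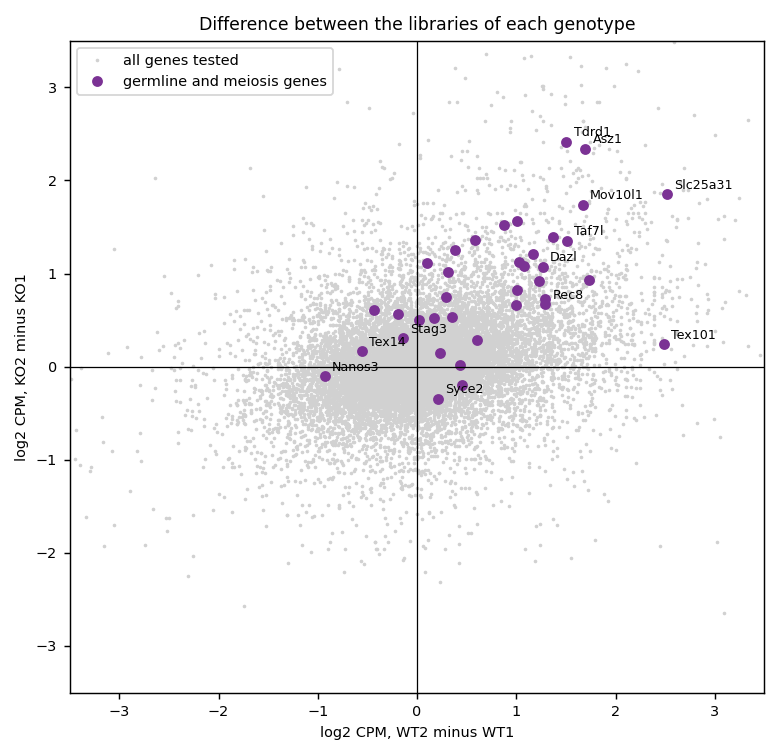
Difference of log2 CPM between the libraries of a genotype, WT2 minus WT1 on the horizontal axis and KO2 minus KO1 on the vertical axis, for all genes tested (grey) and the 37 germline and meiosis genes (purple). Of the 37, 30 lie in the upper right quadrant, where the second library is higher in both genotypes.

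Markers of other cell states were read beside this spread. The 2-cell-like markers, which include the Zscan4 cluster and mark rare cells that pass through a totipotent-like state in mESC cultures, summed to 64.3 and 155 CPM in WT1 and WT2 and to 5.73 and 44.0 CPM in KO1 and KO2. Of 16 tested, 15 were higher in both second libraries (93.75%, against 30.4% of all genes tested). In KO cells 3 fell (18.75%, against 10.7% of all genes) and 13 did not pass, with a median log2 fold change of −2.48. Both KO libraries lay below both WT libraries for 13 of the 16 (32.5% of all genes tested). The part of these markers in the levels of the germline genes was not tested. None of the 12 embryonic stem cell markers was higher in both second libraries. Fibroblast markers, 7 of 11 tested, summed to 107 and 128 CPM in WT and to 68.6 and 83.5 CPM in KO cells, with 1 higher and 1 lower, and 2 of the 11 (Col3a1 and Dcn) were at 0 in all 4 libraries. Endoderm markers, 7 of 10 tested, summed to 37.8 and 36.2 CPM in WT and to 22.2 and 30.4 CPM in KO cells, with Sox7 lower. Markers of gonadal somatic cells, 9 of 11 tested, summed to 43.5 and 41.0 CPM in WT and to 21.9 and 23.3 CPM in KO cells, with Cyp11a1 lower. No endoderm or gonadal marker was at 0 in all 4 libraries.

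Chromosome medians were read beside these calls. The median log2 difference from WT over all tested genes of chromosomes 8 and 11 was 0.48 to 0.52 in the KO libraries. The set had 6 tested genes there, of which 3 rose (Meioc, Syce2, Nanos3) and 1 fell (Hormad2). It had 31 elsewhere, of which 2 rose (Rec8, Hormad1) and 6 fell. The shares of all tested genes called on and off these chromosomes were not counted, so this split is only a description. With the median of each chromosome removed, Meioc stayed higher (log2 fold change 1.87, adjusted p = 0.00441) and Hormad2 stayed lower (−1.43, adjusted p = 0.00929). Syce2 (0.58, adjusted p = 0.0827) and Nanos3 (1.31, adjusted p = 0.118) no longer passed, and neither did Tdrd9 on chromosome 12 (−1.80, adjusted p = 0.0533). The copy number of these chromosomes was not measured.

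The hexamers printed above were set beside the values. The 14 genes with CACGTG had a median log2 fold change of −0.78, with 2 higher and 4 lower, and the 20 matched genes without it had a median of 0.19, with 3 higher and 3 lower. The 14 genes with TCCCGC had a median of 0.32, with 4 higher and 2 lower, and the 20 without it had a median of −0.81, with 1 higher and 5 lower. The median log2 difference of WT2 over WT1 was 1.05 with and 0.74 without CACGTG, and that of KO2 over KO1 was 1.10 and 0.67. With TCCCGC the same medians were 0.36 and 0.63, and without it 1.05 and 1.16. These splits are descriptions of 34 genes without a test.

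**Figure D4:**
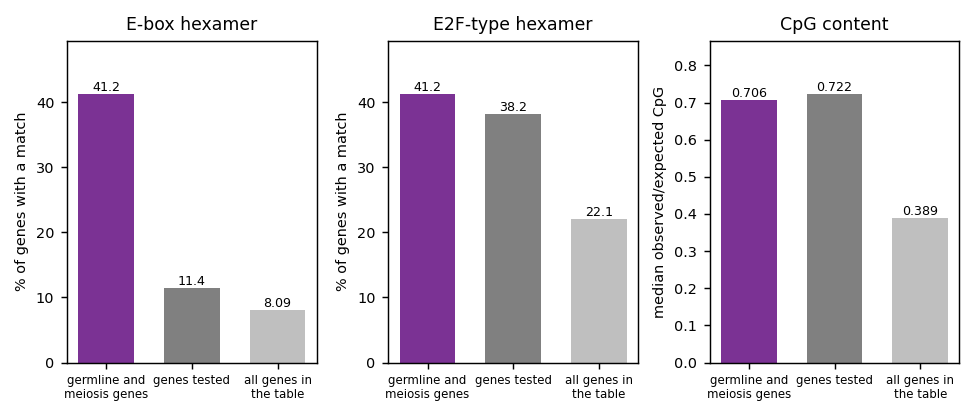
Share of genes whose 300-base promoter window holds the E-box CACGTG (left) or the E2F-type hexamer TCCCGC (middle), in percent, and the median CpG observed/expected ratio (right), for the 34 matched germline and meiosis genes, the 12411 genes tested with a window and all 27025 genes with a window. The E-box bar is at 41.2% for the set and at 11.4% for the genes tested, while the E2F-type bars are at 41.2% and 38.2%.

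Other genes of the same pathways were read next. Of 57 other meiosis and piRNA genes tested, 8 rose (14.04%), 7 fell (12.3%) and 42 did not pass. The shares that rose and fell were near the 11% and 10.7% of all genes, and the median log2 fold change was −0.12. For 13 (22.8%, against 5.11% of all genes) both second libraries were more than 1.5-fold higher. Among the other meiosis genes, 5 of 37 rose (13.5%) and 6 fell (16.2%). Mcmdc2, a helicase-like protein of meiotic recombination, was at 1.64 and 2.46 CPM in WT and at 11.5 and 13.2 CPM in KO cells (log2 fold change 2.58, SE 0.38, adjusted p = 0.00513). Tex15, known from meiotic recombination and piRNA-guided silencing, was at 9.82 and 20.1 CPM in WT and at 55.5 and 84.6 CPM in KO cells (2.22, SE 0.36, adjusted p = 0.00730). Both were well above the WT range in each KO library. Iho1, a partner of Hormad1 in break formation, was at 24.0 and 19.3 CPM in WT and at 4.05 and 5.55 CPM in KO cells (−2.17, SE 0.31, adjusted p = 0.00464). Majin, which tethers telomeres to the nuclear envelope in meiosis, had a log2 fold change of −1.72, Hsf2bp, a partner of the recombination protein Brca2, of −1.22, and the MutS homologue Msh5 of −1.17. Psmc3ip, a cofactor of Dmc1, had 1.12 and Cntd1, a crossover factor, 1.05. Psmc3ip and Cntd1 are on chromosome 11 and did not pass with chromosome medians removed (adjusted p of 0.0954 and 0.238), and Cntd1 also did not pass on FPKM (0.0717 and 0.0695). Without KO1, Majin (adjusted p = 0.0518), Msh5 (0.1002) and Cntd1 (0.145) did not pass, and without KO2 the same held for Hsf2bp (0.0590), Msh5 (0.115), Psmc3ip (0.0905) and Cntd1 (0.375).

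Among 20 other genes listed for the piRNA pathway, 3 rose (15%, against 11% of all genes) and 1 fell (5%, against 10.7%). The 1 that fell, Tdrd3, is not restricted to germ cells. Tdrd12, a Tudor helicase of piRNA amplification, was at 20.4 and 17.7 CPM in WT and at 164 and 106 CPM in KO cells (log2 fold change 2.83, SE 0.26, adjusted p = 0.00103). Tdrd12 rose while its relative Tdrd9 fell. Tdrd3, a Tudor protein that is broadly expressed, was at 54.3 and 33.3 CPM in WT and at 9.07 and 10.3 CPM in KO cells (−2.18, SE 0.29, adjusted p = 0.00379). Pld6, the mitochondrial protein Zucchini, had a log2 fold change of 1.32 and the RNA helicase Ddx39a one of 1.04, and neither passed with chromosome medians removed (adjusted p of 0.133 and 0.119), as they lie on chromosomes 11 and 8. Without KO1, Pld6 (adjusted p = 0.0543) and Ddx39a (0.142) did not pass, and Pld6 did not pass without KO2 (0.129).

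Chromatin regulators known to act at germline gene promoters were read as a separate list. Of 31 tested, 5 rose (16.1%, against 11% of all genes), 3 fell (9.68%, against 10.7%) and 23 did not pass, and the median log2 fold change was 0.13. The DNA methyltransferase Dnmt3a was at 73.7 and 56.3 CPM in WT and at 176 and 219 CPM in KO cells (log2 fold change 1.601, SE 0.22, adjusted p = 0.00394). Atf7ip, a cofactor of the H3 lysine methyltransferase Setdb1, was at 56.1 and 39.5 CPM in WT and at 158 CPM in both KO libraries (1.73, SE 0.22, adjusted p = 0.00309). The deacetylase Hdac1 was at 174 and 165 CPM in WT and at 497 and 425 CPM in KO cells (1.44, SE 0.19, adjusted p = 0.00337). The demethylating enzyme Tet2 went the other way, at 337 and 171 CPM in WT and at 91.6 and 87.6 CPM in KO cells (−1.51, SE 0.31, adjusted p = 0.0144). Within PRC1.6, E2f6 was lower (−0.76, adjusted p = 0.0375), its partner Tfdp1 was higher (0.83, adjusted p = 0.0152), and Mga and Max had log2 fold changes of 0.034 and −0.024 (adjusted p of 0.956 and 0.941). The methyltransferase gene Ehmt2 had 0.70 (adjusted p = 0.0324) and Rnf2, the ubiquitin ligase of PRC1, had −0.59 (adjusted p = 0.0495). E2f6, Rnf2 and Tfdp1 did not pass with chromosome medians removed (adjusted p of 0.0587, 0.0677 and 0.226), and E2f6, Rnf2, Tfdp1 and Ehmt2 did not pass without either KO library. E2f6 also did not pass on the deposited FPKM values (adjusted p of 0.0560 and 0.0614), nor Rnf2 with upper-quartile normalization (0.0515).

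**Figure D5:**
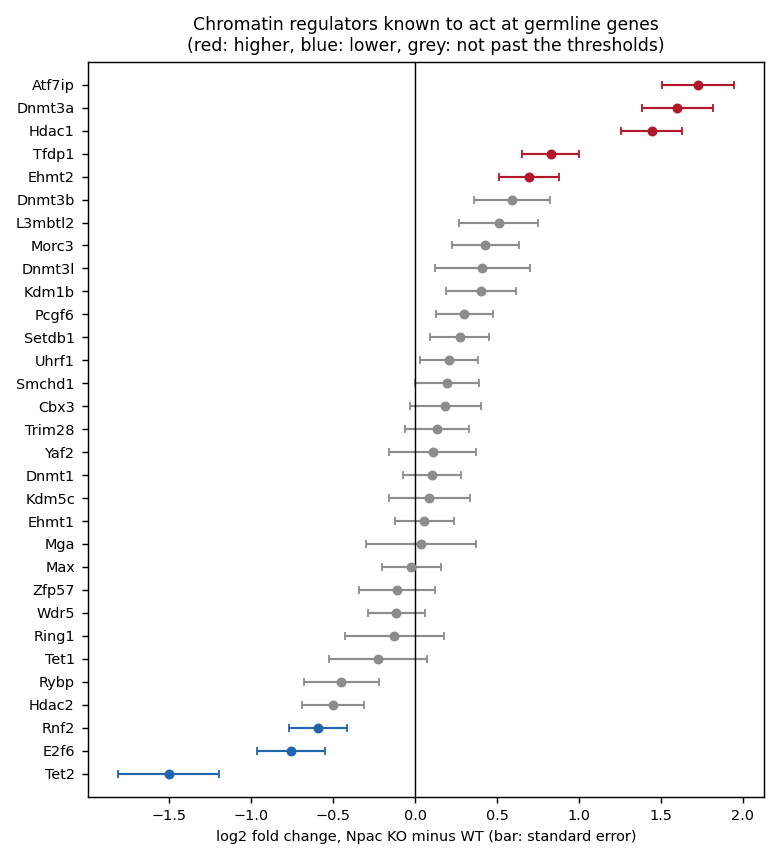
Fitted log2 fold change of Npac KO over WT, with the standard error as a bar, for 31 chromatin regulators known to act at germline genes, ordered by value, with red for higher, blue for lower and grey for genes not past the thresholds. Atf7ip at 1.73 and Tet2 at −1.51 are at the ends, and 23 genes are grey.

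The regulators did not share the spread between libraries. Both second libraries were higher for 3 of 31 (9.68%, against 30.4% of all genes tested). The median log2 difference was −0.22 between WT2 and WT1 and −0.057 between KO2 and KO1. The summed level of the regulators was 6968 and 5595 CPM in WT and 7331 and 6742 CPM in KO cells. Dnmt1 and Uhrf1, which maintain DNA methylation through replication, had log2 fold changes of 0.11 (SE 0.18, adjusted p = 0.703) and 0.20 (SE 0.18, adjusted p = 0.438). Kdm1b, the partner of Npac, was at 24.4 and 27.8 CPM in WT and at 31.4 and 37.5 CPM in KO cells (log2 fold change 0.40, SE 0.21, adjusted p = 0.211).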

How the data were processed

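RNA-seq libraries of 2 WT and 2 Npac KO samples of E14 cells were analysed. The authors deposited raw read counts per gene and FPKM values, which are scaled to gene length and library size. The submitters' processing notes name CASAVA, HISAT2 2.0.5, featureCounts 1.5.0-p3 and the build mm10, while strand use is not given in the sources used here. None of the 39 genes had the start and end of the GENCODE M21 annotation, so only chromosomes are given for genes, and coordinates only for the RefSeq windows. Counts were fitted in R 4.3.3 with edgeR 4.0.16 (TMM, filterByExpr, quasi-likelihood test, Benjamini-Hochberg over 18157 genes). Thresholds were 0.05 on the adjusted p and 1.5 on the fold change, and the common biological coefficient of variation was 0.235. CPM values are TMM-normalised. DESeq2 1.42.0, limma 3.58.1 on log2 of the deposited FPKM plus 0.1 or 1, other scalings and filters, chromosome medians and each library left out were the alternatives. Every tested gene of the set was named, with up to 8 called genes of each other list by size of change at a mean of at least 20 reads, and further genes (Tfcp2l1, Col3a1, Dcn, Sox7, Cyp11a1, Gcdh, Chpt1, Mga, Max, Dnmt1, Uhrf1, Kdm1b) were chosen after their values were seen. The genes and all lists, including markers, were chosen with earlier results of these data known. Figures were drawn with matplotlib 3.10.9.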

Additional observations from a re-analysis of the deposited data

How the results depend on the processing

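Beside edgeR with TMM, 9 other settings and the 4 fits without a library were run. Over all genes, 1999 rose and 1946 fell, and without a library 826 to 3571 rose and 821 to 3384 fell. In the set, the 5 genes that rose became 3 with chromosome medians removed and 3 (without KO2) to 12 (without WT2) with a library left out. The 7 that fell became 13 with no filter on low counts and 3 (without KO1) to 17 (without WT1), and the 12 called in either direction became 20 and 7 (without KO1) to 24 (without WT1). The median of −0.48 ran from −0.80 to 0.27 without a library. Of the other meiosis and piRNA genes, the 8 that rose became 4 with chromosome medians removed and 4 to 14 without a library, and the 7 that fell became 11 with no filter and 3 to 17 without a library. Of the chromatin regulators, the 5 that rose became 3 to 8 without a library, and the 3 that fell became 1 on FPKM with a pseudocount of 1, 1 with chromosome medians removed and 1 to 6 without a library. A fit without a library assumes that the lone library varies like the others. With no filter on low counts, calls over all genes also increased, to 2862 higher and 2799 lower among 32685 genes tested. More calls in that setting were thus not limited to the set. The cause of these shifts was not tested.

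Libraries of the same number deviated together across genes (Pearson's r 0.332, Spearman's rho 0.299), but with only 2 pairs and no label for what the number marks they were not treated as pairs. With the replicate number as a block, 3128 genes rose and 2994 fell, and 11 of the other meiosis and piRNA genes fell. In the set, 7 rose and 13 fell (20 in either direction, with 12 of the 12 calls kept). Sycp1, Sycp2, Syce1, Piwil4, Mov10l1, Stk31, Tex19.1 and Slc25a31 passed here and with no filter on low counts, though not in the main fit.

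Tex14 changed sign with chromosome medians removed (−0.17). With a library left out, the log2 fold change changed sign for 11 genes, none of them called with all libraries. It ran from −0.45 to 0.93 for Dazl, −0.20 to 1.07 for Ddx4, −0.69 to 0.58 for Brdt, −1.002 to 0.017 for Smc1b, −0.19 to 0.32 for Piwil2, −0.58 to 2.47 for Asz1, −1.18 to 0.59 for Mael, −1.87 to 0.85 for Tdrd1, −0.29 to 1.05 for Tdrkh, −1.48 to 1.10 for Tex101 and −2.85 to 0.16 for Slc25a31. With 2 libraries a group, genes of this size of spread could not be placed on either side of 0.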

Other observations

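Other genes of germ cells, outside meiosis and the piRNA pathway, were read as a further list. Of 29 tested, 6 rose (20.7%, against 11% of all genes), 5 fell (17.2%, against 10.7%) and 18 did not pass. For 10 (34.5%, against 5.11% of all genes) both second libraries were more than 1.5-fold higher. Usp26, an X-linked testis deubiquitinase, was at 8.71 and 4.92 CPM in WT and at 64.5 and 116 CPM in KO cells (log2 fold change 3.73, SE 0.38, adjusted p = 0.00149). Rhox13, a germ cell homeobox gene, was at 9.49 and 31.0 CPM in WT and at 1.03 and 2.14 CPM in KO cells (−3.66, SE 0.64, adjusted p = 0.00882). The 2 genes, both on the X chromosome, were separated between genotypes in every library, in opposite directions.

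Tcam1 (2.67), the egg coat gene Zp3 (2.57), Boll (2.41), a relative of Dazl, and the oocyte gene Nlrp4f (2.38) were higher, by their log2 fold changes. Zfp42 (−2.64), also a marker of embryonic stem cells, and Tex13b (−2.47) were lower. Boll did not pass without KO2 (adjusted p = 0.153), and Zp3 did not pass without KO1 (0.0518).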
